A study of Homo sapiens with 29 samples.

Results

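The 4 ERBB receptor genes EGFR, ERBB2, ERBB3 and ERBB4 and 6 genes of their EGF-type ligands, AREG, EREG, HBEGF, TGFA, BTC and NRG1, were followed in WM239A cells, an established human metastatic melanoma line, through continuous and intermittent exposure to the BRAF inhibitor LGX818 (encorafenib). The members were taken by gene symbol, and each of the 10 symbols marked 1 row among the 60675 genes of the count table. Polyadenylated RNA was counted in 29 libraries of 10 groups. WM239A cells carrying BRAF-V600E as an overexpressed transgene were sampled without drug (untreated), after 20 hours and after 7 days (week 1) at 500 nM LGX818, and then on 2 schedules. The intermittent schedule went on with 7 days in DMSO (week 2 off drug), 7 days back in LGX818 (week 3 on drug) and 7 days in DMSO again (week 4 off drug). The continuous schedule stayed in 500 nM LGX818 to 14, 21 and 28 days (weeks 2, 3 and 4). Vector cells, WM239A without the BRAF-V600E transgene and without drug, served to compare the transgene without drug. Every group held 3 libraries except week 4 of the continuous schedule, which held 2. All come from 1 cell line, and the labels do not say that libraries of a group were separate cultures, so the p-values below measure the spread between these libraries, which may be technical.

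ERBB receptors are receptor tyrosine kinases that pair on binding a ligand and signal through RAS and the MAP kinases and through PI3 kinase. EGFR binds EGF, TGFA and AREG, while BTC, EREG and HBEGF also bind ERBB4, and NRG1 binds ERBB3 and ERBB4. ERBB2 has no known ligand and acts as a partner for the others, and ERBB3 has a weak kinase and signals through its partners. The ligands are made as membrane proteins that proteases cut free. ERBB3 is a receptor of neural crest and melanocyte lineage cells, and raised EGFR in melanoma has been linked to resistance to RAF inhibitors.

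Library totals lay between 22934039 and 35804978 counts, and values below are CPM, counts scaled to library size with TMM factors. BRAF, counted over the transgene and the cells' own gene, stood at 889 to 902 CPM in untreated BRAF-V600E libraries, against 37.6 to 43.2 CPM in vector libraries. Its level was 3168 to 3288 CPM in week 2 off drug and 3332 to 3495 CPM in week 4 off drug, above the 1029.6 to 1126 and 989.5 to 1045 CPM of the continuous groups at those weeks. DUSP6, a phosphatase gene that ERK activity induces, fell to 9.92 to 11.5 CPM after 20 hours, against 417 to 425 CPM untreated, and read 639 to 674 CPM in week 2 off drug. SPRY4, another ERK target, had 7.75 to 9.07 CPM after 20 hours, against 1288 to 1396 CPM untreated. The 2 genes parted in week 2 off drug against untreated cells, where DUSP6 was higher and SPRY4 lower, both called as defined below. The table names the intermittent week 3 columns as off drug and the sample labels as on drug, and DUSP6 read 101 to 116 CPM there, beside 97.4 to 106 CPM in week 3 continuous libraries. All 7 melanocyte lineage markers were detected in every group, with a summed level of 2250.1 to 2344 CPM untreated. In 4 libraries, replicate 3 of both week 2 groups and replicate 1 of both week 3 groups, counts differed from the other replicates by more than in any other group (chi-square per gene above 15 against both). Results that change without these libraries are named below.

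A gene was tested if it passed a filter on low counts, as 9 of the 10 members and 20494 of all genes did. EREG did not pass. EGFR, AREG and BTC passed only through the groups where they were high: no library reached 10 counts in 3 groups for EGFR, in 3 groups for AREG and in 2 groups for BTC. Called means an adjusted p under 0.05 over all 20494 genes by edgeR.

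**Figure D1:**
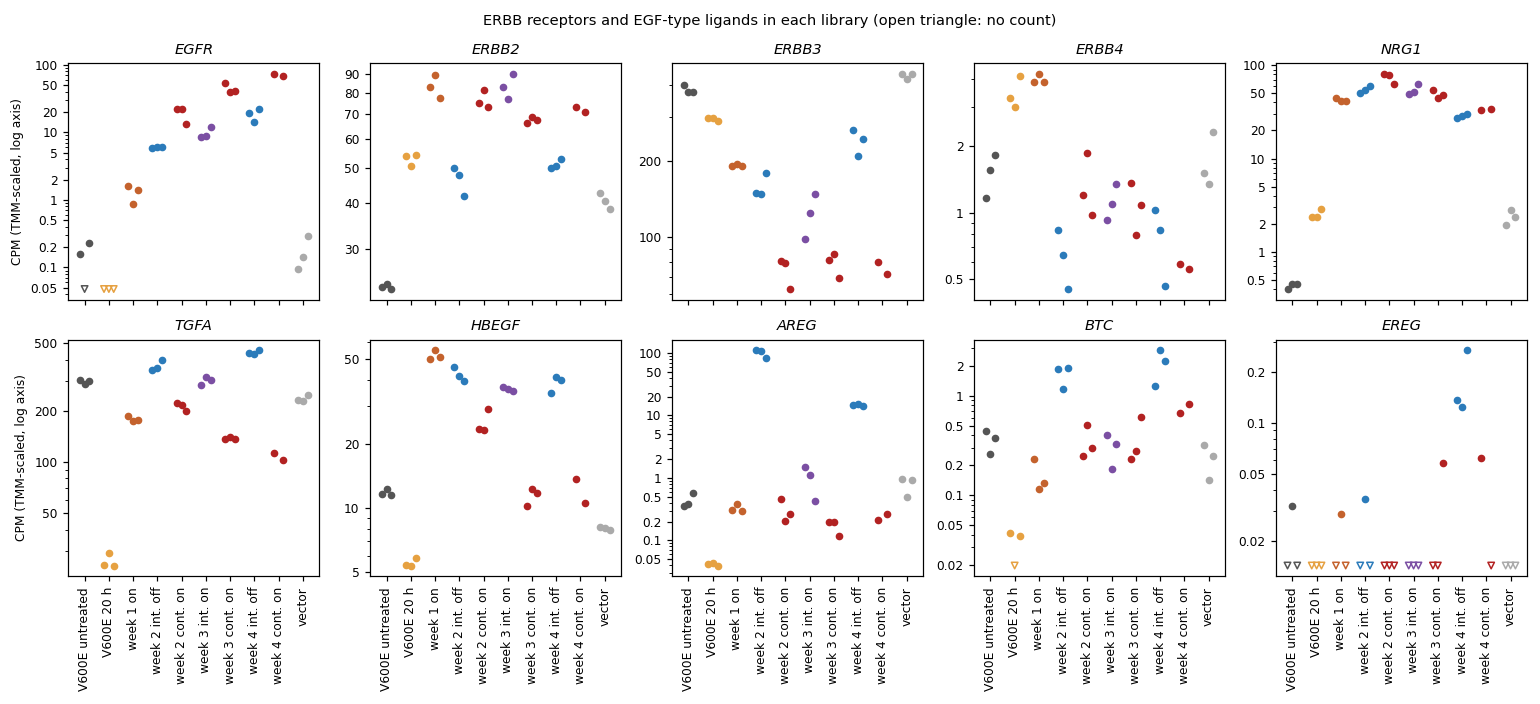
CPM of each member in every library on log axes, with groups in the order of the course and vector cells last; open triangles at the lower edge mark libraries with no count. EGFR spans from no count in 20 hour libraries to 68.1 to 73.7 CPM in week 4 continuous libraries, and AREG is above 10 CPM only in the libraries of weeks 2 and 4 off drug.

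Per kilobase of exon, the mix of receptor transcripts differed between groups. In week 4 continuous libraries ERBB3 made up 39.8% ± 1.00 (SD, n = 2) of the summed CPM per kilobase of the 4 receptors, and in untreated libraries 94.6% ± 0.235 (SD, n = 3). ERBB2 held 33.1% ± 1.09 in week 4 continuous libraries and 5.12% ± 0.195 in untreated ones. EGFR held 26.9% ± 0.0920 and 0.0228% ± 0.0209 in the same groups. In the groups off drug ERBB3 again held most of the receptor sum, with 77.7% ± 3.14 in week 2 and 80.3% ± 1.55 in week 4. Among the 6 ligands, TGFA held 93.2% ± 0.299 of the sum per kilobase in untreated libraries. It had the highest mean level per kilobase of the ligands in each of the 10 groups. AREG took 39.5% ± 4.72 in week 2 off drug, and NRG1 took 11.3% ± 1.05 in week 2 continuous libraries. The shares divide by the summed length of all annotated exons of a gene, so a change of isoform could shift them.

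**Figure D2:**
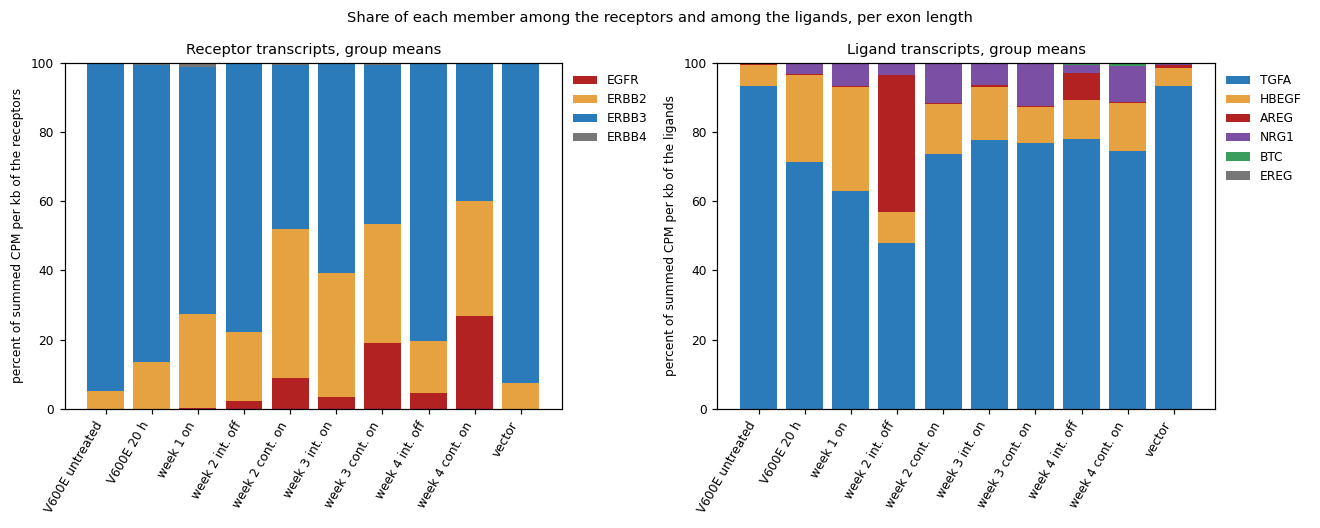
Stacked bars of each member's mean share, in percent, of the summed CPM per kilobase of exon of the 4 receptors (left) and of the 6 ligands (right) in each group. EGFR widens through the continuous groups to 26.9% ± 0.0920 of the receptor sum in week 4, and AREG is a wide band in week 2 off drug.

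EGFR encodes the receptor for EGF and lies on the forward strand at chr7:55019021-55211628 (GRCh38, GENCODE 29). It had the widest range of the receptors. RefSeq gives 2 windows around starts of EGFR, each 250 bases before to 50 bases after a start (GRCh38.p14, forward strand). They are printed because EGFR changed most among the receptors and the windows differ in sequence. Capitals mark matches on either strand to AP-1 (TGANTCA), CRE (TGACGTCA), ETS (CCGGAAGT) or M-box (CATGTG) letters.
EGFR chr7:55018767-55019066: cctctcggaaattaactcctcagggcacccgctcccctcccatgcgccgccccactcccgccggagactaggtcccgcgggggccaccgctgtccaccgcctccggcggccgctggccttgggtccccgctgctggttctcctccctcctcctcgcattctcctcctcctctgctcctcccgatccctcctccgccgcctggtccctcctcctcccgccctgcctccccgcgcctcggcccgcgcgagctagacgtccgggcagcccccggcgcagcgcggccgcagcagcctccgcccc
EGFR chr7:55109589-55109888: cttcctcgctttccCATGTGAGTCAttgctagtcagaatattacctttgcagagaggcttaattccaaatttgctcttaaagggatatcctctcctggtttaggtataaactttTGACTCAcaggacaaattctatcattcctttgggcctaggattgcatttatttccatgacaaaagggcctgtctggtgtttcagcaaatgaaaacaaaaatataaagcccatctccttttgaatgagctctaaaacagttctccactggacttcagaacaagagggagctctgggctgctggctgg
The upstream window holds none of the 4 motifs. The downstream window holds 2 AP-1 matches and 1 M-box match, and the M-box overlaps the first AP-1 match by its last letters. Among 35116 RefSeq windows of this length, 7.71% hold AP-1 letters and 11.1% hold M-box letters at least 1 time, so a single match of either is not rare. The share of windows with 2 AP-1 matches was not counted. Gene counts do not tell the 2 starts apart.

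EGFR had no count in the 3 libraries taken after 20 hours and 1.62, 0.865 and 1.38 CPM in week 1, against 0.160, 0 and 0.227 CPM untreated. Every week 1 library was above every untreated one. The log2 change of week 1 against untreated was 3.33 ± 0.57 (SE, as after each log2 change below; edgeR adjusted p = 1.15e-05). With 10 EGFR counts in all untreated libraries, its size was loose: it was 2.68 without untreated replicate 2 and 4.07 without untreated replicate 3, called in both. Against the 20 hour group, which had 0 EGFR counts, the week 1 group was at least 30.2-fold higher, taking a floor of 3 counts over the group. The 20 hour group itself was at least 2.93-fold lower than untreated cells by the same floor, from 10 counts in untreated libraries. That difference missed the threshold (edgeR adjusted p = 0.0526) and passed it with DESeq2 (adjusted p = 0.00489), with no count filter (0.0017), without untreated replicate 2 (0.0186) and without the 4 libraries that stand apart (0.0243).

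Under continuous drug EGFR went on rising every week. It had 22.4, 22.1 and 13.5 CPM in the week 2 libraries, 53.4, 39.3 and 41.6 CPM in week 3 and 73.7 and 68.1 CPM in week 4. No library of one week overlapped the week before, although replicate 3 of week 2 was below the other week 2 libraries. The log2 change was 3.93 ± 0.25 for week 2 against week 1 (edgeR adjusted p = 6.21e-13) and 1.21 ± 0.18 for week 3 against week 2 (edgeR adjusted p = 9.78e-06). For week 4 against week 3 it was 0.66 ± 0.19 (edgeR adjusted p = 0.0310). This last call was lost without week 3 replicate 2 (0.126) or 3 (0.116) and without week 4 replicate 1 (0.234) or 2 (0.132).

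The intermittent schedule also gave higher EGFR at each step, on drug or off. EGFR had 5.78, 6.15 and 6.06 CPM in week 2 off drug, 8.58, 8.81 and 12.1 CPM in week 3 on drug and 19.1, 14.2 and 22.2 CPM in week 4 off drug. These groups did not overlap one another. The log2 change was 2.25 ± 0.27 for week 2 off drug against week 1, 0.71 ± 0.21 for week 3 on drug against week 2 off drug and 0.91 ± 0.19 for week 4 off drug against week 3 on drug, all 3 called. At each week the intermittent cells held less EGFR than the continuous cells, with log2 changes of -1.69 ± 0.20 in week 2, -2.18 ± 0.19 in week 3 and -1.94 ± 0.19 in week 4, all 3 called. Week 4 off drug was 3.08-fold above week 2 off drug (edgeR adjusted p = 3.39e-07). An antisense gene, EGFR-AS1, shares 1.49% of the EGFR exon bases and had 6 counts in all libraries together, against 13465 for EGFR.

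The summed level of 7 fibroblast markers, like EGFR, was higher from week 1 on under continuous drug. It was 2.08 to 2.27 CPM untreated, 2.37 to 4.18 CPM after 20 hours, where EGFR had no count, 249 to 261 CPM in week 1, 1071 to 1118 CPM in week 2 continuous and 2229 to 2469 CPM in week 4 continuous libraries. On return to drug in week 3 it was 632 to 755 CPM, below the 1657 to 1744 CPM of week 3 continuous libraries, as EGFR was. In the groups off drug it was 22.0 to 26.2 CPM in week 2 and 27.9 to 30.5 CPM in week 4, where EGFR was above its week 1 level. In week 1 against untreated, 5 of the 7 markers were called higher and 1 lower, beside 27.5% and 26.7% of all tested genes. In week 4 continuous against untreated, 6 were called higher and 0 lower, beside 29.3% and 26%. Back on drug in week 3 against continuous, 0 were called higher and 5 lower, beside 14% and 14.3%. Off drug against continuous cells, 2 of the 7 markers were called higher and 4 lower in week 2, and 1 higher and 6 lower in week 4. Of all tested genes, 27.3% were higher and 27.9% lower in week 2, and 26.1% and 25.1% in week 4. All 7 markers had counts in each group but week 1, where THY1 was at 0. Their part in the EGFR result was not tested. In bulk RNA, more cells with EGFR and more EGFR RNA per cell cannot be told apart, here or for any member below.

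ERBB2, the receptor without a ligand of its own (chr17:39687914-39730426, forward strand), was higher on drug and lower off it. It had 53.8, 50.6 and 54.1 CPM after 20 hours and 82.7, 89.1 and 77.5 CPM in week 1, against 23.7, 24.1 and 23.4 CPM in untreated libraries. Neither group overlapped the untreated one. ERBB2 was higher by a log2 change of 1.16 ± 0.08 at 20 hours (edgeR adjusted p = 4.25e-14) and 1.81 ± 0.08 in week 1 (edgeR adjusted p = 5.40e-19). In week 2 it had 49.8, 47.6 and 41.8 CPM off drug, against 75.1, 81.3 and 73.0 CPM under continuous drug. In week 3 it had 83.2, 77.1 and 90.02 CPM back on drug, against 66.1, 68.8 and 67.4 CPM under continuous drug. In week 4 it had 49.8, 50.6 and 52.9 CPM off drug, against 73.0 and 71.0 CPM under continuous drug. All libraries with 7 days or more of drug up to sampling were above all BRAF-V600E libraries sampled off drug. The intermittent minus continuous log2 change was -0.72 ± 0.07 in week 2, 0.31 ± 0.07 in week 3 and -0.49 ± 0.08 in week 4, all 3 called. On the opposite strand MIEN1 shares 5.53% and PGAP3 1.88% of the ERBB2 exon bases, and whether strand was used in counting is not given in the sources used here, so part of the ERBB2 counts is uncertain.

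ERBB3, the neuregulin receptor and the highest receptor per kilobase in every group, lies at chr12:56076799-56103505 on the forward strand. It fell on drug, and off drug it was higher than under continuous drug at the same week. It had 296, 298 and 289 CPM after 20 hours and 192, 195 and 191 CPM in week 1, against 400.5, 375 and 377 CPM untreated, and the 3 groups did not overlap. The log2 change was -0.38 ± 0.11 at 20 hours (edgeR adjusted p = 0.00381) and -0.996 ± 0.11 in week 1 (edgeR adjusted p = 4.71e-09). Continuous cells held 80.4, 79.0 and 62.5 CPM in week 2, 81.2, 86.1 and 69.4 CPM in week 3 and 80.1 and 71.7 CPM in week 4. These 3 groups overlapped, and neither weekly step passed the test. Week 4 continuous cells were 5.06-fold below untreated cells (edgeR adjusted p = 1.74e-15).

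Intermittent cells held 149, 149 and 179 CPM in week 2 off drug, 98.9, 125 and 149 CPM in week 3 on drug and 265, 209 and 245 CPM in week 4 off drug. They were above the continuous cells of the same week in every library. The log2 change against continuous cells was 1.11 ± 0.11, 0.66 ± 0.11 and 1.66 ± 0.13 in weeks 2, 3 and 4, all called. Week 4 off drug was also above week 2 off drug, by 0.59 ± 0.11 (edgeR adjusted p = 1.08e-04). Week 3 on drug was below week 2 off drug, with a log2 change of -0.36 ± 0.11 (edgeR adjusted p = 0.00699). That call was lost when only these 2 groups were fitted (0.0519), without week 2 off drug replicate 3 (0.0886) or week 3 on drug replicate 1 (0.0925), and without the 4 libraries that stand apart (0.26), where the change was -0.12. The small step of week 2 off drug against week 1, -0.27 ± 0.11 (edgeR adjusted p = 0.0367), was lost under RLE scaling (0.0907), DESeq2 (0.121) and without week 1 replicate 2 (0.0806) or 3 (0.0608) or week 2 off drug replicate 1 (0.133) or 2 (0.0889). Off drug the sum of the 7 melanocyte lineage markers, like ERBB3, was higher than under continuous drug, with 503 to 542 CPM off drug against 251 to 269 CPM in week 2, and 812 to 886 CPM against 349 to 366 CPM in week 4. Of the 7 markers, 5 were called higher and 1 lower off drug in week 2, and 5 higher and 2 lower in week 4. Of all tested genes, 27.3% were higher and 27.9% lower in week 2, and 26.1% and 25.1% in week 4. In week 3 the sums of the schedules overlapped, with 311 to 429.6 CPM back on drug and 312 to 368 CPM under continuous drug. There 1 marker was called higher and 5 lower back on drug, beside 14% and 14.3% of all tested genes. After 20 hours, where ERBB3 was lower than untreated, the sum was higher than untreated, at 8217 to 8346 CPM. Their part in the ERBB3 result was not tested.

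ERBB4, the second neuregulin receptor (chr2:211375717-212538841, reverse strand), was low throughout, with 13 to 146 counts a library. It had 3.26, 2.97 and 4.11 CPM after 20 hours and 3.85, 4.21 and 3.85 CPM in week 1, against 1.16, 1.56 and 1.82 CPM untreated. All libraries of both drug groups were above the untreated ones, with log2 changes of 1.19 ± 0.26 (edgeR adjusted p = 2.40e-04) and 1.39 ± 0.25 (edgeR adjusted p = 2.27e-05). It then fell to 1.19, 1.86 and 0.972 CPM in week 2 continuous libraries, a log2 change of -1.55 ± 0.26 against week 1 (edgeR adjusted p = 1.80e-05). Week 2 off drug had 0.838, 0.643 and 0.452 CPM, below week 2 continuous with a log2 change of -1.08 ± 0.32 (edgeR adjusted p = 0.00432), a call lost without week 2 continuous replicate 2 (0.0695). From week 3 on, the schedules overlapped and no difference between them was called. Mean levels were 1.12 ± 0.209 CPM in week 3 on drug and 1.08 ± 0.287 CPM in week 3 continuous libraries (SD, n = 3 each). They were 0.775 ± 0.283 CPM in week 4 off drug and 0.572 ± 0.0185 CPM in week 4 continuous libraries (SD, n = 3 and 2). The rise of week 3 on drug against week 2 off drug (0.81 ± 0.32, edgeR adjusted p = 0.0297) was lost with only these groups fitted (0.0669), with DESeq2 (0.0534), without the 4 libraries that stand apart (0.0847) and without week 2 off drug replicate 2 (0.0567) or 3 (0.138) or week 3 on drug replicate 2 (0.0515) or 3 (0.11).

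**Figure D3:**
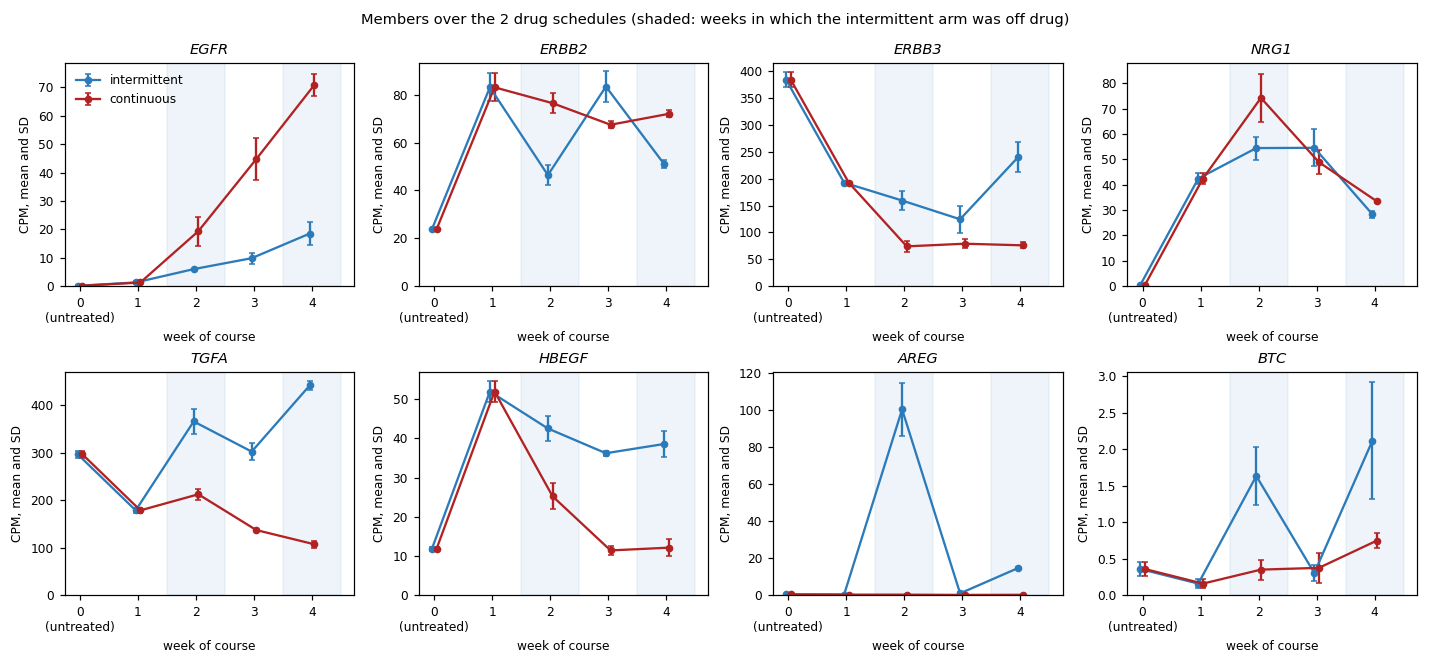
Mean CPM with SD of 8 members on the intermittent (blue) and continuous (red) schedules from untreated cells (week 0) to week 4, with 3 libraries a point except 2 in week 4 continuous; shading marks weeks in which the intermittent schedule was off drug. The schedules share the untreated and week 1 points. EGFR separates downward on the intermittent schedule, while ERBB3, TGFA and HBEGF lie above their continuous levels from week 2.

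NRG1 encodes neuregulin 1, the ligand of ERBB3 and ERBB4 (chr8:31639386-32767959, forward strand), and had the largest rise of the ligands on first exposure. It had 2.34, 2.37 and 2.88 CPM after 20 hours and 44.8, 41.2 and 41.2 CPM in week 1, against 0.400, 0.454 and 0.454 CPM untreated. The groups did not overlap. NRG1 rose by a log2 change of 2.52 ± 0.24 at 20 hours (edgeR adjusted p = 1.57e-10) and 6.59 ± 0.17 in week 1 (edgeR adjusted p = 3.40e-24), a 96.1-fold difference. Untreated BRAF-V600E cells themselves were 5.34-fold below vector cells, which had 1.95, 2.79 and 2.34 CPM (edgeR adjusted p = 3.66e-09).

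NRG1 stayed high when the drug was taken away. It had 50.2, 53.9 and 59.2 CPM in week 2 off drug, against 80.9, 78.5 and 63.3 CPM in week 2 continuous libraries, a log2 change of -0.45 ± 0.10 (edgeR adjusted p = 2.76e-04). Off drug it was still 123-fold above untreated cells. In week 3 it had 48.8, 52.1 and 62.7 CPM back on drug, against 54.2, 44.9 and 47.5 CPM under continuous drug. These groups overlapped, the difference from continuous cells was not called (0.16 ± 0.10, edgeR adjusted p = 0.244), and without the 4 libraries that stand apart it was 0.31 (0.00687). In week 4 it had 26.9, 28.4 and 29.7 CPM off drug, against 32.9 and 33.9 CPM under continuous drug. The log2 change there was -0.24 ± 0.11, not called (edgeR adjusted p = 0.0779), and called with only these groups fitted (0.0113) and without the 4 libraries (0.0158). Both schedules ended below their week 3 levels: the log2 change was -0.94 ± 0.10 for the intermittent and -0.55 ± 0.11 for the continuous schedule, both called, the second not without week 4 continuous replicate 1 (0.0526).

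TGFA, an EGFR ligand (chr2:70447280-70554193, reverse strand), was the most abundant ligand transcript per kilobase. It had 24.9, 29.1 and 24.6 CPM after 20 hours, against 302, 288 and 300.3 CPM in untreated libraries, a log2 change of -3.50 ± 0.08 (edgeR adjusted p = 1.54e-25). By week 1 it had 185, 174 and 177 CPM, below untreated cells with a log2 change of -0.73 ± 0.07 and above the 20 hour cells with one of 2.77 ± 0.08, both called. The level therefore recovered between 20 hours and 7 days with the drug present. Continuous cells had 222, 216 and 199 CPM in week 2, 136, 139.7 and 136 CPM in week 3 and 112 and 102 CPM in week 4. Intermittent cells had 346, 356 and 395 CPM in week 2 off drug, 284, 318 and 305 CPM in week 3 on drug and 437, 434 and 454 CPM in week 4 off drug. All of their libraries were above all continuous libraries of the same week. The log2 difference between the schedules was 0.78 ± 0.07 in week 2, 1.14 ± 0.07 in week 3 and 2.04 ± 0.08 in week 4, all 3 called. The small rise of week 2 continuous cells against week 1 (0.25 ± 0.07, edgeR adjusted p = 0.00606) was lost with no count filter (0.0602) and without week 2 continuous replicate 1 (0.0672). The fall in week 4 against week 3 continuous (-0.35 ± 0.08, edgeR adjusted p = 0.00439) was lost without week 4 replicate 2 (0.186).

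HBEGF, heparin-binding EGF-like growth factor (chr5:140332843-140346631, reverse strand), fell early and rose by week 1. It had 5.43, 5.38 and 5.85 CPM after 20 hours and 49.9, 55.0 and 50.9 CPM in week 1, against 11.6, 12.3 and 11.5 CPM untreated. The 3 groups did not overlap. The log2 change was -1.09 ± 0.11 at 20 hours (edgeR adjusted p = 1.14e-09) and 2.14 ± 0.10 in week 1 (edgeR adjusted p = 5.55e-18). Under continuous drug the level went down again, with 23.4, 23.2 and 29.1 CPM in week 2, 10.2, 12.3 and 11.8 CPM in week 3 and 13.7 and 10.5 CPM in week 4. The week 4 level was not called different from untreated cells (log2 0.04 ± 0.11). Intermittent cells kept more of it, with 46.0, 41.8 and 39.6 CPM in week 2 off drug, 36.9, 36.2 and 35.5 CPM in week 3 on drug and 34.9, 41.0 and 39.8 CPM in week 4 off drug. They were above the continuous cells of the same week in every library, by log2 0.75 ± 0.09, 1.66 ± 0.10 and 1.67 ± 0.11 in weeks 2, 3 and 4, all called. Within the intermittent schedule the steps were small. Week 3 on drug was below week 2 off drug with a log2 change of -0.23 ± 0.09 (edgeR adjusted p = 0.0320), a call lost with no count filter (0.0746), with only these groups fitted (0.0639) and without week 2 off drug replicate 1 (0.155) or 2 (0.083) or week 3 on drug replicate 2 (0.0519) or 3 (0.0751).

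AREG encodes amphiregulin, an EGFR ligand, on chr4:74445134-74455009 (forward strand), and was the member that separated the schedules most. It lies between EREG, 56.4 kilobases away, and BTC, 289.7 kilobases away, on chromosome 4. The RefSeq windows of AREG and EREG (GRCh38.p14, forward strand) are shown together because these neighbours differed so much in level.
AREG chr4:74444886-74445185: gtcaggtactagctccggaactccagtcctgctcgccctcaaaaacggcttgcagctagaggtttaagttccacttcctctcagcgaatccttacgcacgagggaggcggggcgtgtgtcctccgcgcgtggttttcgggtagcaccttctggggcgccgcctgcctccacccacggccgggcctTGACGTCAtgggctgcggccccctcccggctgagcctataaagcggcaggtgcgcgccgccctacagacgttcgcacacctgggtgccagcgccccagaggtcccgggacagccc
EREG chr4:74364895-74365194: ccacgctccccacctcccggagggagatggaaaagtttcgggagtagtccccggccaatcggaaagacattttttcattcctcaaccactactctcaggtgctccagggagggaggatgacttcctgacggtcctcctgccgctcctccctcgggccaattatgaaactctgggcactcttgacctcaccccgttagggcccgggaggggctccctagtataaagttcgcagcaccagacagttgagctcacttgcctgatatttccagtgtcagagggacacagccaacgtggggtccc
The capitals in the AREG window are a CRE match, letters held by 1.85% of the 35116 windows. The EREG window holds none of the 4 motifs, and neither does that of BTC. In all, 8 of the 10 members had a window in the set used, and only AREG's held CRE letters.

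AREG had 110.1, 107 and 83.9 CPM in week 2 off drug, against 0.453, 0.203 and 0.262 CPM in week 2 continuous libraries. In week 3 it had 1.49, 1.13 and 0.426 CPM back on drug, against 0.195, 0.197 and 0.116 CPM under continuous drug. In week 4 it had 14.5, 15.4 and 14.2 CPM off drug, against 0.215 and 0.263 CPM under continuous drug. The schedules did not overlap in any of these weeks. Off drug or back on it, AREG was higher by a log2 change of 8.37 ± 0.23 in week 2 (edgeR adjusted p = 4.42e-23), 2.58 ± 0.39 in week 3 (edgeR adjusted p = 5.55e-06) and 5.92 ± 0.30 in week 4 (edgeR adjusted p = 1.03e-16).

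Week 2 off drug was 227-fold above untreated cells, which had 0.360, 0.389 and 0.568 CPM and had never seen the drug. The second period off drug gave less AREG than the first, with a log2 change of -2.77 ± 0.15 (edgeR adjusted p = 7.54e-15) and no overlap. After 20 hours of drug AREG had 1 count in each library, 3 in all against 36 in untreated libraries. Scaled to depth, this was 10.6-fold lower, with a 95% counting interval of 3.34 to 53.6. Week 1 had 0.308, 0.375 and 0.296 CPM and was not called against untreated cells. Markers of other cell types also differed off drug. The 4 endothelial markers summed to 17.9 to 20.6 CPM in week 2 off drug, with CDH5 at 0 in both groups, against 0.336 to 1.03 CPM in week 2 continuous libraries. The 5 leukocyte markers summed to 5.11 to 5.78 CPM, with CD3E at 0 in both, against 0.440 to 0.782 CPM in the same groups. The 4 epithelial markers summed to 0.643 to 0.754 CPM, with EPCAM and CDH1 at 0, against 0.822 to 1.45 CPM. Untreated libraries, where AREG was also low, had endothelial sums of 8.75 to 10.9 CPM. Their leukocyte sums were 1.92 to 3.01 CPM and their epithelial sums 0.280 to 0.303 CPM. Against week 2 continuous, 3 of 3 tested endothelial and 2 of 2 tested leukocyte markers were called higher, and 1 of 2 tested epithelial markers lower. Of all tested genes, 27.3% were higher and 27.9% lower there. In week 4 off drug, where AREG was lower than in week 2 off drug, the endothelial sum was 28.1 to 30.1 CPM and the leukocyte sum 8.74 to 11.99 CPM, both above week 2 off drug. Their part in the AREG result, and that of the higher BRAF level off drug, was not tested.

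BTC, betacellulin (chr4:74744759-74794686, reverse strand), was low but followed the same direction as AREG off drug. It had 44, 33 and 54 counts in the week 2 off drug libraries, against 6, 15 and 8 counts in week 2 continuous libraries. In CPM these were 1.18 to 1.88 against 0.247 to 0.508, with no overlap and a log2 change of 2.18 ± 0.39 (edgeR adjusted p = 2.34e-05). In week 4 it had 1.26, 2.85 and 2.23 CPM off drug, against 0.677 and 0.822 CPM under continuous drug, a change of 1.497 ± 0.39 (edgeR adjusted p = 0.00206). The second period off drug was not called different from the first (0.38 ± 0.32). On drug in week 3 it had 0.183 to 0.403 CPM on the intermittent and 0.234 to 0.611 CPM on the continuous schedule, which overlapped. After 20 hours the group held 2 counts against 29 in untreated libraries, 12.8-fold lower with a 95% counting interval of 3.23 to 110.4. The call of week 4 continuous against untreated cells (1.07 ± 0.46, edgeR adjusted p = 0.0475) was lost with no count filter (0.0687), with DESeq2 (0.079), and without any 1 of the 5 libraries (adjusted p up to 0.188). The call of week 1 against 20 hours was lost with DESeq2 (0.0611) and without 20 hour replicate 2 (0.103) or week 1 replicate 1 (0.0844).

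EREG, epiregulin (chr4:74365143-74388751, forward strand), was at the limit of detection and was not tested. It had 4, 4 and 8 counts in the 3 week 4 off drug libraries, against 2 and 0 counts in the 2 week 4 continuous libraries. No other group held more than 2 counts in all. Scaled to depth, week 4 off drug was 5.49-fold above week 4 continuous, with a 95% counting interval of 1.29 to 49.2. It was at least 5.56-fold above week 3 on drug, where there was no count and a floor of 3 counts over the group allows up to 0.0314 CPM. In week 2 off drug, where AREG peaked, EREG had 1 count, so week 4 off drug was 14.1-fold above it with an interval of 2.19 to 590.0. Intervals and floors cover counting error only.

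Counted by comparison, the transgene without drug changed 4 of the 9 tested members (2 higher, 2 lower). That comparison called 17% of all tested genes (7.04% higher, 9.92% lower). HBEGF and TGFA were higher in untreated BRAF-V600E cells than in vector cells, by log2 0.55 ± 0.11 and 0.33 ± 0.07. ERBB2 and NRG1 were lower, with log2 changes of -0.78 ± 0.08 and -2.42 ± 0.24. ERBB2 had 23.7, 24.1 and 23.4 CPM in untreated BRAF-V600E libraries, against 42.5, 40.7 and 38.6 CPM in vector libraries, and no library overlapped.

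The 20 hour exposure called 8 members (3 higher, 5 lower) with 53.7% of all genes called (28.5% higher, 25.2% lower). Week 1 against untreated called 7 (5 higher, 2 lower; background 54.1%, 27.5% higher and 26.7% lower). At 20 hours 4 of the 5 tested ligands were lower and 1, NRG1, was higher. The share of counts on mitochondrial genes differed between these groups, at 17.6% to 20.7% after 20 hours and 9.43% to 11.1% in week 1, against 14.9% to 16.4% untreated, and its part in these results was not tested. By week 1 the ligands HBEGF and NRG1 and the receptors EGFR, ERBB2 and ERBB4 were higher, and TGFA and ERBB3 were lower. Week 1 against 20 hours called 8 members (7 higher, 1 lower; background 57.7%, 28.6% higher and 29.2% lower), with ERBB3 the lower one. The median log2 change of the tested members was -1.09 at 20 hours and 1.39 in week 1, where that of all genes was 0.06 and 0.00. Setting EGFR at its floor of 20 hours leaves the first median as it is. As the members were chosen with earlier results of these data known, both medians are a description and do not test the set.

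Under continuous drug, week 2 against week 1 called 6 members (3 higher, 3 lower) with 29.5% of all genes called (16% higher, 13.5% lower). Week 3 against week 2 called 4 (1 higher, 3 lower; background 21.3%, 10.5% higher and 10.8% lower) and week 4 against week 3 called 3 (1 higher, 2 lower; background 6.93%, 3.44% higher and 3.49% lower). EGFR was the member that rose in all of these steps. Without either week 4 library 1 member was called in the last step, and the count of all genes called there dropped to 502 without replicate 1 and 428 without replicate 2, against 1420, and to 902 without week 3 replicate 3. Week 4 continuous against untreated called 7 members (4 higher, 3 lower; background 55.3%, 29.3% higher and 26% lower).

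Taking the drug away called 9 members in week 2 against week 1 (5 higher, 4 lower; background 54.5%, 27.7% higher and 26.8% lower) and 9 in week 2 off drug against week 2 continuous (5 higher, 4 lower; background 55.2%, 27.3% higher and 27.9% lower). Against continuous cells the higher ones were ERBB3, AREG, HBEGF, TGFA and BTC, and the lower ones EGFR, ERBB2, ERBB4 and NRG1. Week 2 off drug against untreated cells also called 9 (7 higher, 2 lower; background 60%, 31.2% higher and 28.8% lower), with ERBB3 and ERBB4 the lower ones. The second withdrawal, week 4 off drug against week 3 on drug, called 7 (5 higher, 2 lower; background 45.5%, 23.1% higher and 22.3% lower), and week 4 off drug against week 4 continuous 7 (5 higher, 2 lower; background 51.2%, 26.1% higher and 25.1% lower). In week 4, too, ERBB3, AREG, HBEGF, TGFA and BTC were higher off drug than under continuous drug, and EGFR and ERBB2 were lower. The median log2 change of the tested members was 0.75 off drug against continuous in week 2 and 1.497 in week 4, where that of all genes was -0.04 and -0.01. The week 4 median is the value of BTC, which passed the filter only through groups where it was high. The members were chosen with earlier results of these data known, so the medians only describe these genes and do not test the set. Week 4 off drug against week 2 off drug called 5 (3 higher, 2 lower; background 29%, 14.6% higher and 14.4% lower), with EGFR, ERBB3 and TGFA higher and AREG and NRG1 lower. These comparisons share groups and are not independent of each other.

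Returning to drug, week 3 on drug against week 2 off drug, called 8 members (3 higher, 5 lower) with 56.3% of all genes called (27.8% higher, 28.5% lower), and 5 when only these 2 groups were fitted. Week 3 on drug against week 3 continuous called 6 (5 higher, 1 lower; background 28.4%, 14% higher and 14.3% lower). The lower one was EGFR and the higher ones ERBB2, ERBB3, AREG, HBEGF and TGFA.

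**Figure D4:**
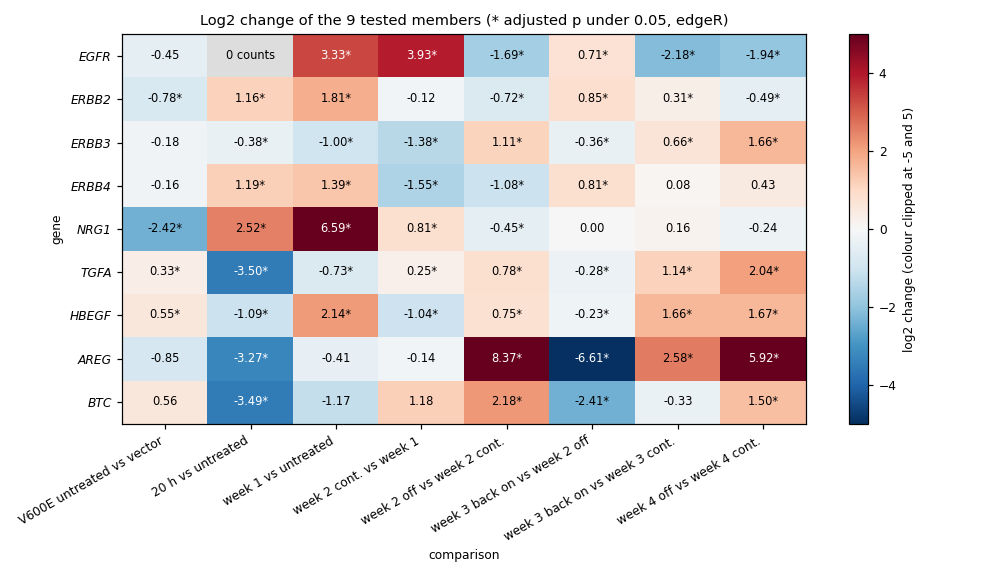
Log2 change of the 9 tested members (rows) in 8 comparisons (columns), with colour clipped at -5 and 5 and an asterisk for an adjusted p under 0.05 by edgeR; EGFR at 20 hours is left grey because that group had 0 counts, and AREG and BTC had 3 and 2 counts there. In week 2 off drug against continuous, 5 members are higher and 4 lower.

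The schedule sets a second exposure beside the first, and 7 members responded differently to it than to the first (2 of the differences positive, 5 negative). In this test of the difference 48.3% of all genes were called, 23.3% positive and 25% negative. NRG1 changed by 0.00 ± 0.10 on return to drug and by 6.59 ± 0.17 on the first exposure, a difference of -6.58 ± 0.20 (edgeR adjusted p = 2.21e-21). Before the return it stood at 54.4 CPM on average, and before the first exposure at 0.436 CPM. HBEGF changed by -0.23 ± 0.09 and 2.14 ± 0.10 (difference -2.37 ± 0.13). EGFR rose both times, by 0.71 ± 0.21 and 3.33 ± 0.57 (difference -2.62 ± 0.64; -1.97 without untreated replicate 2 and -3.36 without untreated replicate 3, called in both), and so did ERBB2, by 0.85 ± 0.07 and 1.81 ± 0.08 (difference -0.96 ± 0.10). AREG fell by 6.61 on return and its first change, -0.41 ± 0.42, was not called (difference -6.21 ± 0.56). TGFA changed by -0.28 ± 0.07 and -0.73 ± 0.07 (difference 0.46 ± 0.10), and ERBB3 by -0.36 ± 0.11 and -0.996 ± 0.11 (difference 0.64 ± 0.16), so both fell less on return. For ERBB4 and BTC the difference was not called.

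The second withdrawal also differed from the first for 7 members (3 positive, 4 negative; background 17.1%, 7.6% higher and 9.5% lower). AREG rose by 3.84 ± 0.20 at the second and 8.23 ± 0.23 at the first, a difference of -4.39 ± 0.36 (edgeR adjusted p = 1.41e-10). ERBB3 rose by 0.95 ± 0.11 at the second and changed by -0.27 ± 0.11 at the first (difference 1.22 ± 0.16). NRG1 moved in opposite directions, -0.94 ± 0.10 at the second and 0.36 ± 0.10 at the first (difference -1.30 ± 0.14). ERBB4 changed by -0.53 ± 0.30 at the second, not called, and by -2.63 ± 0.28 at the first (difference 2.10 ± 0.42). For EGFR and TGFA the rise was smaller at the second, with differences of -1.34 ± 0.33 and -0.49 ± 0.10. The HBEGF difference (0.38 ± 0.13, edgeR adjusted p = 0.0377) was lost without week 1 replicate 2 (0.105), week 2 off drug replicate 2 (0.0526) or 3 (0.0741) or week 4 off drug replicate 2 (0.0719) or 3 (0.0568).

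**Figure D5:**
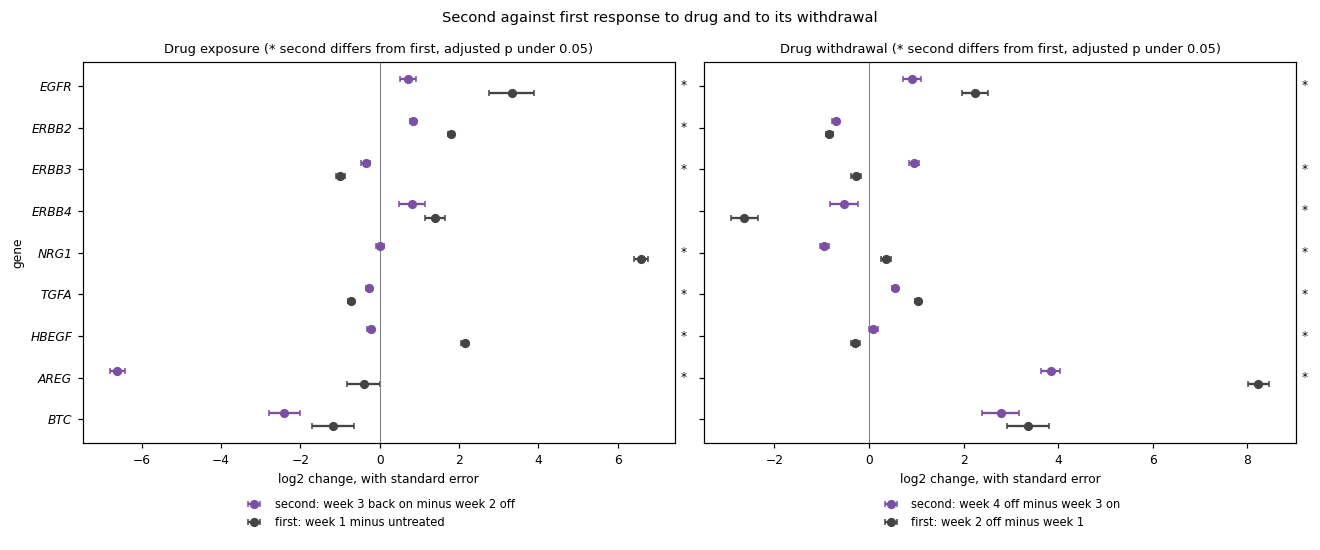
Log2 change with standard error at the second (purple) and the first (grey) exposure to drug, left, and withdrawal of drug, right, for the 9 tested members; an asterisk marks members whose second and first changes differ by edgeR at an adjusted p under 0.05. NRG1 lies near 0 at the second exposure, and the AREG rise at the second withdrawal is smaller than at the first.

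Other genes of the pathway were taken as 32 genes in 4 lists, of which 30 were tested. The counts per list stand beside 27.5% of all tested genes called higher and 26.7% lower in week 1 against untreated. For week 2 off drug against continuous these shares were 27.3% and 27.9%. Among 5 other EGF-type ligands, NRG3, a ligand of ERBB4, had 0.0385, 0.0865 and 0.197 CPM in week 1, against 9.60, 8.004 and 8.63 CPM untreated, and 5.87, 6.93 and 6.89 CPM in week 2 off drug, against 0.0411, 0.0677 and 0.0747 CPM in week 2 continuous libraries. No NRG3 count was found in week 3 or week 4 continuous libraries, and week 4 off drug had 0.817, 0.589 and 0.734 CPM. EGF itself rose in week 1 by 1.41 ± 0.15 on the log2 scale, to a mean of 9.78 CPM against 3.68 CPM untreated. NRG2, a neuregulin, was lower in week 1 (-1.92 ± 0.18). Of the 4 tested, 1 was called higher and 2 lower in week 1, and 2 higher and 0 lower in week 2 off drug against continuous.

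Of 7 genes of ligand shedding, 5 rose and 1 fell in week 1 against untreated cells. ADAM17, the protease that frees TGFA, AREG and HBEGF, rose by 1.22 ± 0.08 (162 against 69.5 CPM). TIMP3, an inhibitor of that protease, rose by 1.504 ± 0.08 (1055 against 372 CPM). In week 2 off drug against continuous, 3 of the 7 were higher and 2 lower. RHBDF1, which helps ADAM17 reach the cell surface, was higher (1.12 ± 0.08), as was the protease ADAM12 (1.09 ± 0.17), and the proteases ADAM9 (-0.72 ± 0.09) and ADAM10 (-0.44 ± 0.09) were lower. RHBDF1 itself was the gene that fell in week 1 (-0.38 ± 0.08). In week 4 off drug against continuous the counts were 2 and 2, beside 51.2% of all tested genes called, with ADAM12 (1.62 ± 0.18) and RHBDF1 (0.88 ± 0.09) higher and ADAM9 (-0.77 ± 0.10) and ADAM17 (-0.25 ± 0.09) lower.

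Of 7 genes that restrain or turn over the receptors, 4 rose and 1 fell in week 1. LRIG1, a membrane protein that lowers ERBB receptor levels, had 50.2, 48.4 and 45.0 CPM in week 1, against 2.20, 2.24 and 3.18 CPM untreated (4.24 ± 0.14, edgeR adjusted p = 1.60e-21). CBL, a ubiquitin ligase of EGFR, was the 1 that fell (-1.06 ± 0.19), and RNF41, a ubiquitin ligase of ERBB3, was higher (0.76 ± 0.07). Off drug in week 2, 2 of the 7 were higher and 3 lower than under continuous drug, with CBL higher (0.99 ± 0.19) and LRIG1 (-1.19 ± 0.12) and LRIG3 (-1.03 ± 0.12) lower. ERRFI1, an inhibitor of the EGFR kinase, was lower at 20 hours (-2.01 ± 0.07) and higher in week 4 continuous libraries (1.42 ± 0.07) than in untreated cells, and higher in week 2 off drug than under continuous drug (0.25 ± 0.06).

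Of 13 adaptors and effectors, 12 were tested, and 4 rose and 4 fell in week 1. SOS2, an exchange factor for RAS, and SHC1, an adaptor, rose by 0.55 ± 0.11 and 0.54 ± 0.06. GAB2, a docking protein (-2.27 ± 0.11), and PLCG1, a phospholipase (-1.36 ± 0.08), fell. Off drug in week 2, 6 were higher and 3 lower than under continuous drug, with GAB2 higher by 1.18 ± 0.11 and PIK3R1, a regulatory subunit of PI3 kinase, by 1.001 ± 0.12, while SOS2 (-0.42 ± 0.11) and the adaptor NCK1 (-0.30 ± 0.11) were lower. Over the 4 lists together, 22 of the 30 tested genes were called in week 1 and 21 in week 2 off drug against continuous. Of all tested genes, 54.1% and 55.2% were called in these comparisons.

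Among tested genes with a mean of at least 5 CPM, those whose group means of log2 CPM lay closest to each member were listed by Pearson's r over the 10 groups, as a description. The groups share the cell line, the drug schedule and their place in the course. RAB27B followed EGFR most closely (r = 0.994), with WASF3 (0.989) and ADAMTS12 (0.976) next. GAL (0.993), LCE1F (0.992) and MMP10 (0.989) were closest to AREG. TRIB2 was closest to ERBB3 (0.967), C15orf52 and KIF13A to ERBB2 (0.983 and 0.981), STIP1 to TGFA (0.982), SEC61B to HBEGF (0.974), ELL2 to NRG1 (0.982) and DSTYK to ERBB4 (0.981).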

How the data were processed

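Cells were trypsinized and frozen at each time point and RNA was purified together at the end, per the labels' protocols, which also give 100 ng of RNA per library and the Universal Plus mRNA-seq kit (NuGEN). The authors deposited raw counts per gene. The submitters' processing notes name Trimmomatic 0.32, HISAT2 2.0.3, SAMtools 0.1.18, HTSeq 0.6.1 and GRCh38; the annotation release and the strand setting are not given in the sources used here. Columns were matched to samples by week, schedule and replicate, since the intermittent week 3 columns are named off drug in the table and on drug in the labels. R 4.3.3 and edgeR 4.0.16 were used for a single quasi-likelihood fit of all 29 libraries, scaled by TMM, with 1 term per group and the default count filter by group (minimum of 10). P-values were adjusted by the Benjamini-Hochberg method over 20494 genes. Of the 60675 listed genes, 39110 had a count, and 57055 IDs matched GENCODE release 29, the source of positions and exon lengths. CPM are counts over the library total times its TMM factor, and the SE is the log2 change over the square root of F. The 18 comparisons share libraries. Library totals were 22934039 to 35804978 counts. The floor of a count of 0 was a fixed setting of 3 counts over a group, turned into CPM by the TMM-scaled totals. Ratios of summed counts carry exact binomial 95% intervals.

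The pathway lists, markers and members were chosen with earlier results of these data known. Pathway genes were named as up to 2 called genes in each direction per list by size of change, with a mean of at least 1 CPM. The other settings tried were scaling by RLE, DESeq2 1.42.0, a fit without the filter, a fit of the compared groups alone, a replicate term, each library left out and, added after seeing the data, 4 libraries left out together. No replicate pairing was used in the main fit: in 0 of 16 comparisons did every same-numbered pair correlate above 0.1 in its deviations (range -0.37 to 0.27). This rule cannot exclude a pairing or a batch shared by some replicate numbers. The lowest values were -0.37 for replicate 3 in week 2 off drug against continuous and -0.33 for replicate 1 in week 3 on drug against continuous. These pairs are the 4 libraries that stand apart. Sequences come from a set of RefSeq windows (GRCh38.p14). The set used here held windows for 8 of the 10 members and none for ERBB3 or NRG1. Figures used matplotlib 3.10.9. Only the edgeR fit with the comparison of week 1 against untreated was tried on simulated data. The tests of second against first responses, the ratios at low counts, the shares and the motif search were not.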

Additional observations from a re-analysis of the deposited data

Results flagged for a closer look

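In 14 results the second response of a gene to drug or to its withdrawal differed from the first by a test of the difference itself. The same test called 48.3% of all tested genes for exposure and 17.1% for withdrawal. At the second exposure, week 3 on drug minus week 2 off drug, set against the first, week 1 minus untreated, the log2 difference was -2.62 for EGFR, -0.96 for ERBB2, 0.64 for ERBB3, -6.21 for AREG, -2.37 for HBEGF, 0.46 for TGFA and -6.58 for NRG1. At the second withdrawal, week 4 off drug minus week 3 on drug, set against the first, week 2 off drug minus week 1, it was -1.34 for EGFR, 1.22 for ERBB3, 2.10 for ERBB4, -4.39 for AREG, 0.38 for HBEGF, -0.49 for TGFA and -1.30 for NRG1. Both sets use the week 2 off drug and week 3 on drug libraries, so they are not independent. The AREG difference of -6.21 is limited by the low AREG level before the first exposure, as given above. Dixon's test for an outlying value was not run on these groups of 2 or 3 libraries.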

How the results depend on the processing

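Of 121 called member results, 109 stayed called in the same direction under every alternative, and of 1515 alternative values none reversed and 47 lost the call, most of them named beside the result. Among results that were not called, the sign turned for NRG1 in week 3 on drug against week 2 off drug (-0.035 with RLE factors and -0.036 with DESeq2) and for ERBB3 in week 3 against week 2 continuous (-0.036 without the 4 libraries that stand apart). With 1 library left out at a time, uncalled values that turned ran from -1.17 to 0.21 for EGFR and -0.30 to 0.092 for ERBB4 (BRAF-V600E against vector), from -0.46 to 0.47 for BTC and -0.018 to 0.16 for ERBB3 (week 3 against week 2 continuous), and from -0.53 to 0.086 for AREG (week 2 continuous against week 1). They ran from -0.11 to 0.083 for NRG1 (week 3 on against week 2 off drug), from -0.15 to 0.030 for ERBB3 and -0.12 to 0.27 for HBEGF (week 4 against week 3 continuous), from -0.16 to 0.24 for HBEGF (week 4 continuous against untreated), and from -0.093 to 0.28 for ERBB4 and -0.57 to 0.24 for BTC (week 3 on drug against continuous). The members called in week 3 on against week 2 off drug numbered 5, not 8, with only those groups fitted, and in week 4 against week 3 continuous 1 to 3 with 1 library left out; there the spread of the remaining week 4 library was taken from the other groups. All genes called in week 3 against week 2 continuous numbered 2751 with only those groups fitted, against 4367. Some uncalled results gained a call: ERBB3 in BRAF-V600E against vector with only those groups fitted (edgeR adjusted p = 0.0362) and AREG there without vector replicate 2 (0.0469) or the 4 libraries (0.049), and BTC in week 1 against untreated without untreated replicate 2 (0.0488) or week 1 replicate 1 (0.0404). With the replicate block the number of members called equalled the reported one in every comparison, for example 9 in week 2 off drug against continuous. The cause of these shifts was not tested. Depth limits EREG, and EGFR, AREG and BTC at 20 hours.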

Other observations

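The second exposure also differed from the first in 20 of the 30 tested pathway genes (6 positive and 14 negative differences). Of all tested genes, 48.3% were called in this test. LRIG1 had 29.7 CPM in week 3 on drug and 13.6 CPM in week 2 off drug, and 47.9 CPM in week 1 and 2.54 CPM untreated, a log2 difference of -3.11 ± 0.18 between the responses. TIMP3, the inhibitor of ADAM17, rose at the first exposure and fell at the second, to 548 CPM in week 3 on drug against 945 CPM in week 2 off drug (difference -2.29 ± 0.11). ADAM17 had 91.0 CPM in week 3 on drug and 106 CPM in week 2 off drug (difference -1.44 ± 0.12). NRG2, a neuregulin, had the opposite sign (difference 2.36 ± 0.25), with 3.01 CPM in week 3 on drug and 2.23 CPM in week 2 off drug.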
